A study of Homo sapiens with 12 samples.

Results

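PEX3 and other genes of the peroxisome were followed in esophageal squamous cell carcinoma cells after silencing of HCP5, a gene for a long non-coding RNA. The set held 34 genes of the 38516 listed. They were chosen by name as genes of peroxisome assembly and peroxisomal metabolism, and PEX3 was singled out because it was among the strongest falls in KYSE150 after silencing. Its KYSE150 values are therefore given as a description, with no test. All 34 genes were found in the table, and 34 of 34 had enough signal to be tested.

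RNA sequencing covered 2 established human lines, KYSE150 and KYSE510, each as control and as HCP5-silenced cells. There were 3 libraries in each of the 4 groups, 12 in all. The labels give culture in RPMI-1640 with serum for every group and name the treatment only as control or silencing of HCP5. The library titles start with the letters sh, left unexplained by the labels, and no reagent sequence is given in the sources used here. Whether libraries of a group came from separate cultures is also not given, so p-values measure the spread between these libraries, which may be technical.

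Peroxisomes are small organelles bounded by a single membrane that shorten very long and branched fatty acids, start the synthesis of ether lipids and break down hydrogen peroxide. Their membrane proteins are inserted by PEX3, the anchor in the membrane, by PEX19, the shuttle that brings new membrane proteins to it, and by PEX16, which helps to recruit PEX3. Enzymes of the interior are carried in by the receptors PEX5 and PEX7 and pass a docking complex, after which the receptors are ubiquitinated and pulled back out. Cells without functional PEX3 lack peroxisomes.

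HCP5 itself was measured first, as a check of the labels. In KYSE150 its level was 0.779, 0.745 and 0.786 RPKM in controls 1, 2 and 3 and 0.315, 0.418 and 0.579 in silenced libraries 1, 2 and 3 (RPKM, a read count divided by the length of the exons and by library depth). In KYSE510 it was 0.914, 1.85 and 1.40 RPKM in controls and 0.505, 0.951 and 0.948 in silenced libraries. Each silenced library was below the control of the same number in both lines, while the groups overlapped in KYSE510. The log2 fold change of HCP5 was -0.45 in KYSE150 (limma adjusted p 0.267) and -0.53 in KYSE510 (limma adjusted p 0.646). The fall of HCP5 thus passed the adjusted threshold in neither line. Its levels rested on 26 to 147 reads per library. Library depth ran from 20035025 to 28202422 reads, and in KYSE150 every silenced library was deeper than every control. Of 9 squamous epithelial markers, 9 had a mean above 1 RPKM, although SOX2 was near 0.160 RPKM in KYSE150 controls. Summed fibroblast markers stayed at or below 0.901 RPKM, endothelial markers at or below 2.09 and hepatocyte markers, a check for a tissue rich in peroxisomes, at or below 0.0736. The hepatocyte sum covers 3 of the 5 genes listed for it, without ALB and HAO1. Leukocyte markers summed to 29.7 to 47.1 RPKM, where 1 of 5 genes, CD68, had a mean above 1 RPKM and MS4A1 was at 0. The summed squamous markers ran from 653 to 1266 RPKM in KYSE150 controls and from 963 to 2328 in silenced libraries, and from 865 to 1423 and from 1061 to 2234 in KYSE510. The basal keratin KRT14 moved most among them. Its level was 28.5, 23.0 and 81.2 RPKM in KYSE150 controls against 127, 91.2 and 369 after silencing, and 6.78, 4.87 and 5.13 against 14.5, 16.8 and 19.8 in KYSE510. Replicate 3 had the highest KRT14 of both KYSE150 groups. The part of these keratins and of depth in the peroxisome results was not tested.

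PEX3 was lower in silenced than in control cells of both lines, while PEX16 and PEX19, which act with it, had overlapping groups in both. In KYSE150, PEX3 measured 7.32, 8.62 and 9.24 RPKM in the controls and 4.08, 3.80 and 4.31 RPKM in the silenced libraries. The groups did not overlap, and the silenced mean was 48.4% of the control mean (4.06 ± 0.254 against 8.39 ± 0.977 RPKM, SD, n = 3). The fitted log2 fold change in this line, which chose the gene, was -0.96 (SE 0.09). In KYSE510, the line that the choice did not use, PEX3 measured 7.65, 7.94 and 8.21 RPKM in the controls and 5.72, 5.12 and 5.19 RPKM in the silenced libraries. Here too every silenced library lay below every control, with means of 5.34 ± 0.330 and 7.94 ± 0.280 RPKM (SD, n = 3), or 67.3% of control. The log2 fold change in KYSE510 was -0.53 (SE 0.09), and limma's p adjusted over all 17823 genes tested was 0.0860, which missed the threshold of 0.05. PEX3 ranked 24 of 17823 by p in KYSE510, and 233 genes had a lower change. The SE, p and rank by p use a spread estimated from all 12 libraries, so the KYSE150 libraries that chose PEX3 enter them. The fit of the 2 KYSE510 groups alone called 0 of the 17823 genes. The adjusted p from limma ran from 0.00774 to 0.313 over the alternatives, and passed 0.05 only where limma-voom was run on recovered reads with a block for the replicate number. Permuting the 6 KYSE510 libraries in an exact two-sided test gave p = 0.1, the smallest value that 3 against 3 unpaired libraries allow. That test left out the pairing of libraries by replicate number.

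PEX3 rested on 238 to 502 reads per library. In KYSE510 the exact 95% Poisson interval of the lowest control was 6.93 to 8.43 RPKM and that of the highest silenced library 5.10 to 6.40 RPKM. Such intervals hold only the error of counting, not the spread between libraries. Reads copied by PCR do not stand for separate molecules, so the intervals may be too narrow even for that error. As the cells were measured in bulk, fewer cells with PEX3 RNA and less PEX3 RNA per cell cannot be told apart. Control cells of the lines had similar PEX3 levels, with a log2 difference of KYSE510 against KYSE150 of -0.07 (SE 0.09; limma adjusted p 0.524).

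**Figure D1:**
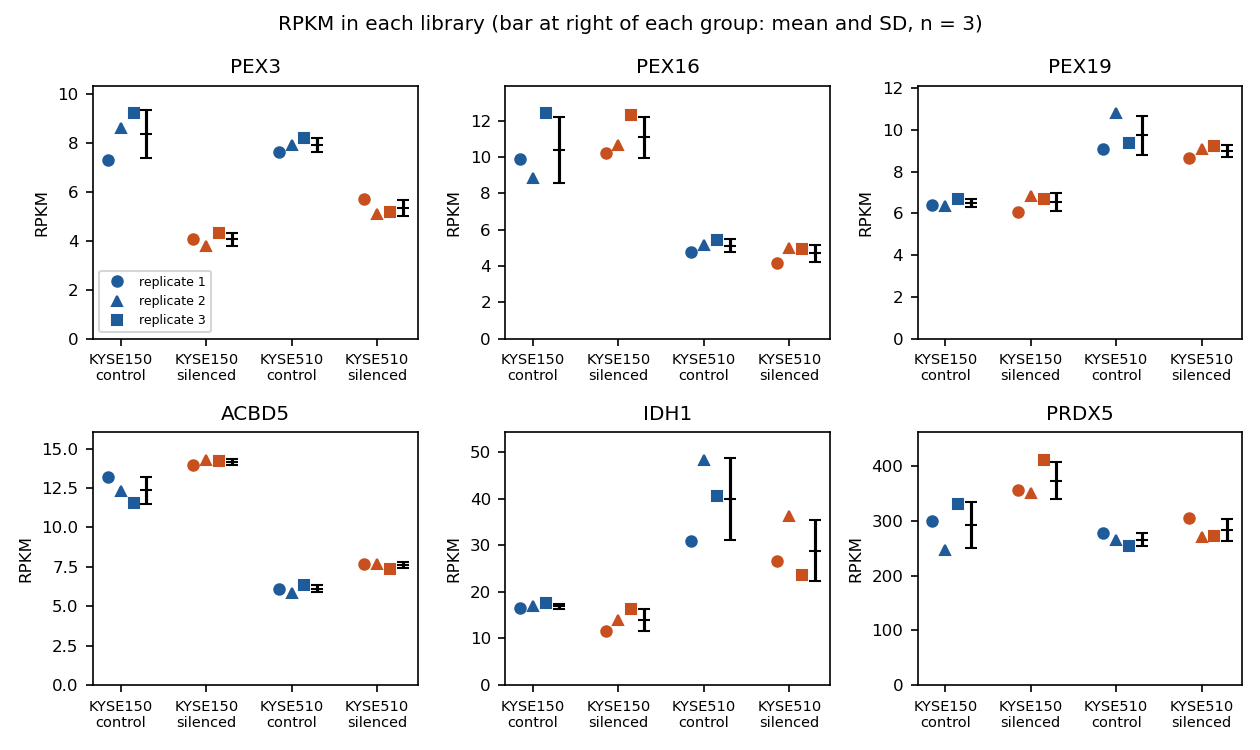
RPKM (vertical axis, linear, from 0) of single genes in each of the 12 libraries; symbols are replicates 1 to 3 of control (blue) and HCP5-silenced (orange) KYSE150 and KYSE510, and the bar beside each group is the mean with the SD (n = 3). PEX3 lies lower in all 3 silenced libraries of each line, ACBD5 lies higher in all 3, and PEX16 and PEX19 overlap between control and silenced cells.

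PEX3 lies on chromosome 6 at 143450807 to 143490010 of GRCh38, plus strand, with 2222 exon bases in the deposited table. Of these, 177 (7.97%) also belong to RP1-20N2.8, which lies on the same strand. Its 3′ UTR holds 2 copies of the 7-base word TCACCTA. The word was picked with earlier results of these data known, and it also occurs 2 times in the exons of HCP5, so its presence in PEX3 is a description. The sites are shown because PEX3 was the only one of the 4 members holding the word whose groups were apart in KYSE510, where 12.1% of all genes were. KYSE150 chose PEX3, so nothing is read from its groups being apart there. Each line gives a site 5′ to 3′ from the GENCODE 29 transcript (GRCh38, plus strand), with the word in capitals, in the order PEX3 (chr6:143489287-143489293 and chr6:143489902-143489908 for the word), PEX13 (chr2:61048988-61048994), FAR1 (chr11:13730302-13730308) and HCP5 (chr6:31464647-31464653 and chr6:31465365-31465371).
PEX3 3′ UTR, upstream site: aaatacactgggtaaaTCACCTAtacttag
PEX3 3′ UTR, downstream site: tgttgatgctgtttacTCACCTAattacat
PEX13 3′ UTR: cataaggacatttgttTCACCTAgatttta
FAR1 3′ UTR: ctaaatgtaaaggaaaTCACCTActttcat
HCP5 exon, upstream site: cttagggtctggttggTCACCTAaagaaat
HCP5 exon, downstream site: ctggcatcctcctatgTCACCTAgagtgtg

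The other members with the word had smaller changes than PEX3, which was chosen for its KYSE150 fall. PEX13, a docking protein with 1 copy, had log2 fold changes of 0.17 in KYSE150 and -0.05 in KYSE510. PEX26, the membrane anchor of the receptor export machine, holds 2 copies in a 3′ UTR of 17321 bases against 784 bases in PEX3, and had changes of 0.15 and -0.11. FAR1, the reductase that supplies fatty alcohols for ether lipids, holds 1 copy and had changes of 0.36 and 0.02. Their control and silenced groups overlapped in both lines, where 19.2% of all genes were apart in KYSE150 and 12.1% in KYSE510. The same 7 letters, read on the transcript strand only, occurred in the 3′ UTR of 932 of 11388 tested genes (8.18%), and 94 of these genes (0.825%) held at least 2 copies. In KYSE510 the median log2 fold change was -0.02 over genes with 0 copies, -0.04 over genes with 1 and -0.07 over genes with 2 or more. The shares of genes with a negative change were 55.6%, 63.2% and 78.7% in the same order. In KYSE150 the medians were 0.10, 0.05 and 0.05 and the shares 28.3%, 37.0% and 34.04%. The 3′ UTRs differed in length between these classes, with medians of 1224, 2886 and 5649 bases. Among genes whose 3′ UTR had 2000 to 4000 bases, 65.2% of 316 with the word and 53.2% of 2263 without it were lower in KYSE510. In KYSE150 the shares for these genes were 35.1% and 25.2%. The word was picked with earlier results of these libraries known, so these medians and shares support nothing. They describe genes of the same libraries, which are not independent, and a match of letters shows no site of action.

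**Figure D2:**
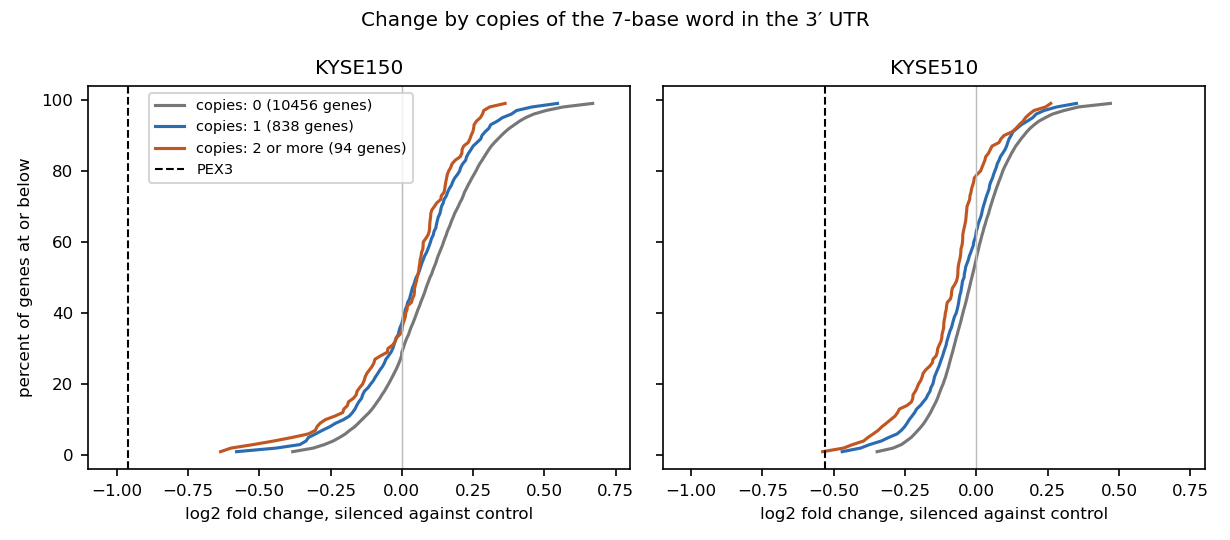
Percent of genes at or below each log2 fold change of silenced against control cells (horizontal axis), by the number of copies of the 7-base word in the 3′ UTR, in KYSE150 (left) and KYSE510 (right). The dashed line marks PEX3 at -0.96 and -0.53; in KYSE510 the medians of the classes are -0.02, -0.04 and -0.07.

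PEX16 and PEX19 differed between the control lines and gave no call with silencing, although each silenced KYSE510 library lay below the control of the same number for both genes. PEX16 (chromosome 11, 45909669 to 45918812) measured 9.91, 8.86 and 12.4 RPKM in KYSE150 controls and 10.2, 10.7 and 12.3 RPKM after silencing. In KYSE510 it measured 4.76, 5.16 and 5.44 RPKM in controls and 4.14, 5.01 and 4.94 RPKM after silencing. Its log2 fold change with silencing was 0.10 in KYSE150 and -0.12 in KYSE510 (SE 0.12; limma adjusted p 0.949). Among controls PEX16 was lower in KYSE510 by a log2 difference of -0.94 (limma adjusted p 5.0e-05). PEX19 (chromosome 1, 160276812 to 160286348) measured 6.41, 6.37 and 6.70 RPKM in KYSE150 controls and 6.07, 6.85 and 6.71 RPKM after silencing. KYSE510 controls had 9.08, 10.8 and 9.37 RPKM of PEX19 and silenced libraries 8.65, 9.08 and 9.23 RPKM. PEX19 had a difference of -0.11 on the log2 scale with silencing in KYSE510 (SE 0.08; adjusted p from limma 0.927), and its control difference between lines was 0.55 (limma adjusted p 1.1e-04). Thus KYSE510 controls held less PEX16 and more PEX19 RNA than KYSE150 controls at a like level of PEX3.

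The import and export machinery gave no call in either silencing contrast. PEX5 and PEX7, the receptors for the carboxy-terminal and amino-terminal import signals, had KYSE510 changes of -0.10 and -0.22, and the docking proteins PEX13 and PEX14 had -0.05 and 0.04. PEX14 had the highest mean level of the assembly factors, 19.1 RPKM over all libraries. Of the ubiquitin ligase subunits, PEX2 measured 3.25, 3.81 and 3.34 RPKM in KYSE510 controls and 2.83, 3.03 and 2.99 RPKM after silencing. The PEX2 groups did not overlap in KYSE510, but the change of -0.20 had a limma adjusted p of 0.764, and in KYSE150 it was -0.04 with overlapping groups. PEX10, another ligase subunit, had changes of 0.30 in KYSE150 and 0.05 in KYSE510. Of its exon bases 39.1% overlap RER1 on the opposite strand, and whether counting used strand is not given in the sources used here, so its level is uncertain. PEX6, an ATPase that extracts receptors, and PEX11A, which acts in elongation and division, had changes of 0.01 and 0.0042 in KYSE510.

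Among transporters and tethers, ACBD5 was the member whose silenced libraries lay above the controls in both lines. ACBD5 (chromosome 10, 27195214 to 27242130) is a membrane protein that binds very long acyl-CoA and tethers peroxisomes to the endoplasmic reticulum. It measured 13.2, 12.3 and 11.5 RPKM in KYSE150 controls and 14.0, 14.3 and 14.2 RPKM after silencing. In KYSE510 it measured 6.12, 5.87 and 6.33 RPKM in controls and 7.70, 7.70 and 7.37 RPKM after silencing. The means after silencing were 115% and 124% of control. The KYSE150 log2 fold change of 0.19 was 0.06 after centring on the median gene and 0.12 after quantile normalization. The KYSE510 log2 fold change was 0.29 (SE 0.07) and limma's adjusted p was 0.268, in a range of 0.0576 to 0.675 over the alternatives, so it did not pass. PXMP2, a channel protein of the membrane, varied between replicates of KYSE150, with 2.73, 2.28 and 5.10 RPKM in controls and 4.27, 5.57 and 5.87 RPKM after silencing. Its log2 fold change was 0.62 in KYSE150 (limma adjusted p 0.209, or 0.0616 with the replicate block) and -0.01 in KYSE510. Without KYSE150 control replicate 3, the highest control, the KYSE150 change was 0.92 (limma adjusted p 0.0273). PXMP2 did not pass with any other single library left out. Of PXMP2's exon bases 29.1% are shared with RP13-672B3.2 on the same strand, so its level is uncertain. The transporter ABCD3, which imports fatty acyl-CoA, had changes of 0.20 and -0.04.

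Enzymes of fatty acid breakdown gave no call with silencing in KYSE510. Of 9 beta-oxidation genes, 4 were higher and 5 lower, from -0.18 to 0.07 on the log2 scale, and 0 passed limma's adjusted threshold or an unadjusted p of 0.05, which 6.35% of all genes reached. The largest positive value was 0.07 for SCP2, a thiolase and sterol carrier, with 5.43, 5.25 and 5.199 RPKM in KYSE510 controls and 5.32, 5.95 and 5.43 RPKM after silencing. In KYSE150, SCP2 measured 7.28, 7.45 and 6.79 RPKM in controls and 6.76, 6.22 and 6.82 RPKM after silencing. ACOX3, an oxidase of branched substrates at a low level, was apart in KYSE150 with 0.584, 0.557 and 0.630 RPKM against 0.841, 0.830 and 0.945 RPKM, and overlapped in KYSE510. PECR, a reductase of enoyl-CoA, was also apart in KYSE150 in the other direction, at -0.22, and had 0.04 in KYSE510. The alpha-oxidation genes PHYH and HACL1 had KYSE510 changes of -0.07 and -0.10, and the ether lipid enzymes AGPS and GNPAT had -0.08 and -0.05.

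The redox genes held the member with the highest level, PRDX5, a peroxidase found in peroxisomes, mitochondria and cytosol. PRDX5 measured 299, 246 and 330 RPKM in KYSE150 controls and 357, 351 and 412 RPKM after silencing. In KYSE510 the controls had 277, 266 and 254 RPKM and the silenced libraries 306, 270 and 271 RPKM. The KYSE150 groups were apart, at 128% of control and a log2 fold change of 0.36, with a limma adjusted p of 0.146 that became 0.0342 with the replicate block. KYSE510 gave 0.09 with overlapping groups (limma adjusted p 0.960). IDH1, the NADP-dependent isocitrate dehydrogenase of cytosol and peroxisomes, measured 16.4, 16.9 and 17.5 RPKM in KYSE150 controls and 11.6, 14.0 and 16.2 RPKM after silencing. Its KYSE510 levels were 31.0, 48.4 and 40.5 RPKM in controls and 26.6, 36.2 and 23.7 RPKM after silencing. Each silenced library was below the same-numbered control in both lines. The KYSE510 log2 fold change of IDH1 was -0.46 (SE 0.18; limma adjusted p 0.699), and it passed only in voom with the replicate block, at -0.47 (limma adjusted p 0.0155). Catalase, CAT, which splits hydrogen peroxide, measured 4.15, 5.31 and 5.69 RPKM in KYSE150 controls and 4.46, 5.40 and 5.56 RPKM after silencing. In KYSE510 it measured 7.29, 9.79 and 8.70 RPKM in controls and 6.60, 7.81 and 6.65 RPKM after silencing, a log2 change of -0.27 (SE 0.14; limma adjusted p 0.851). With each library left out in turn, this change of CAT ran from -0.38 to -0.17. The value of -0.17 came without KYSE510 control replicate 2, the highest control.

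Over the whole set, KYSE510 gave 0 of 34 members past the adjusted threshold in limma, where 0.0393% of all genes passed. With the replicate block it was again 0, where 0.112% of all genes passed, and voom with the block called 2, PEX3 and IDH1, both lower, where 2.23% of all genes passed. At an unadjusted p under 0.05 there were 4 members, PEX3, PEX2 and IDH1 lower and ACBD5 higher, where 6.35% of all genes reached it. Groups were apart in 3 members, PEX3, PEX2 and ACBD5, or 8.82%, beside 12.1% of all genes, so the share was near the background. The median log2 fold change was -0.05 over members, with 12 higher and 22 lower, and -0.02 over all genes. KYSE150 is the contrast that chose PEX3, so its counts are given with nothing read from them. There 1 of 34 members was past the threshold, the chosen gene PEX3, where 0.499% of all genes were. With the block 2 were, PEX3 and PRDX5, where 6.70% of all genes were, and in voom with the block 5, where 19.0% were. Groups were apart in 8 members, or 23.5%, beside 19.2% of all genes. The members' median there was 0.07 with 23 higher and 11 lower, and that of all genes 0.08. Centring each library on its median gene moved the KYSE150 median of all genes from 0.08 to -0.05, and then 14 members were higher and 20 lower, so the direction of the smaller KYSE150 changes depends on scaling. The signs that turned were those of ACAA1, AGPS, CAT, GNPAT, PEX11A, PEX16, PEX19, PEX6 and PHYH. PEX3, ACBD5, PRDX5 and IDH1 kept their signs in both lines. The difference in change between the lines passed in 0 members and in 0 of all genes in limma's main fit. It had an unadjusted p under 0.05 in 4 members and in 12.2% of all genes. Voom with the block called this difference in 1353 of all genes, and the fit without filter in 10. Which of these were members is not given here.

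**Figure D3:**
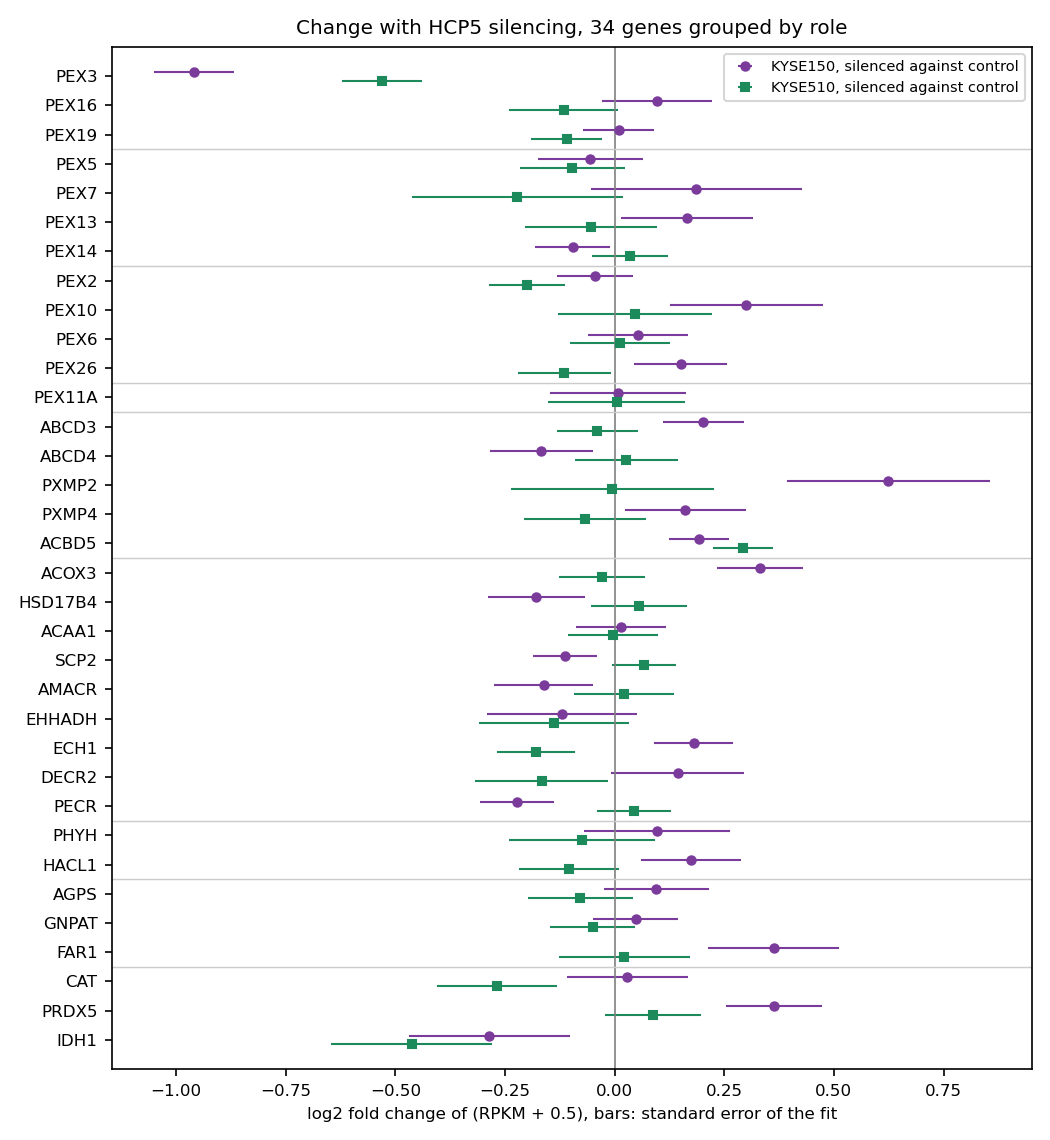
Log2 fold change of silenced against control cells (horizontal axis, bars are standard errors) for all 34 members, ordered by role, in KYSE150 and KYSE510. PEX3 is the lowest in both lines, at -0.96 and -0.53, and the members' medians are 0.07 and -0.05.

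The lines differed from each other far more than silenced from control cells. Among controls, 19 of 34 members (55.9%) differed between lines at the adjusted threshold in limma, 12 higher and 7 lower in KYSE510, where 62.0% of all genes did, so the members' share was near the background. This comparison uses the same KYSE150 and KYSE510 controls as the silencing contrasts. ECH1, an isomerase that prepares unsaturated fatty acids for oxidation, measured 11.9, 11.1 and 11.7 RPKM in KYSE150 and 34.005, 39.9 and 36.2 RPKM in KYSE510, a log2 difference of 1.62 (SE 0.09; limma adjusted p 4.0e-08). AMACR, the racemase of branched fatty acids, measured 1.72, 1.23 and 1.55 RPKM against 4.39, 4.46 and 4.996 RPKM (1.36; limma adjusted p 1.2e-06). Of AMACR's exon bases 55.0% are shared with the read-through gene C1QTNF3-AMACR on the same strand, so its level is uncertain. IDH1 was also higher in KYSE510, by 1.19 (limma adjusted p 1.6e-04). In the other direction PXMP4, a membrane protein, measured 1.23, 1.51 and 1.55 RPKM in KYSE150 and 0.211, 0.256 and 0.254 RPKM in KYSE510 (-1.38; limma adjusted p 5.5e-06). HACL1, the lyase of alpha-oxidation, measured 8.84, 7.48 and 8.85 RPKM against 2.84, 3.39 and 3.25 RPKM (-1.28; limma adjusted p 2.1e-06). ACBD5 was lower in KYSE510 by -0.96 (limma adjusted p 3.2e-07). With RPKM of PXMP4 near the pseudocount, its difference depends on that choice and ran from -2.55 to -0.97 over the alternatives.

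**Figure D4:**
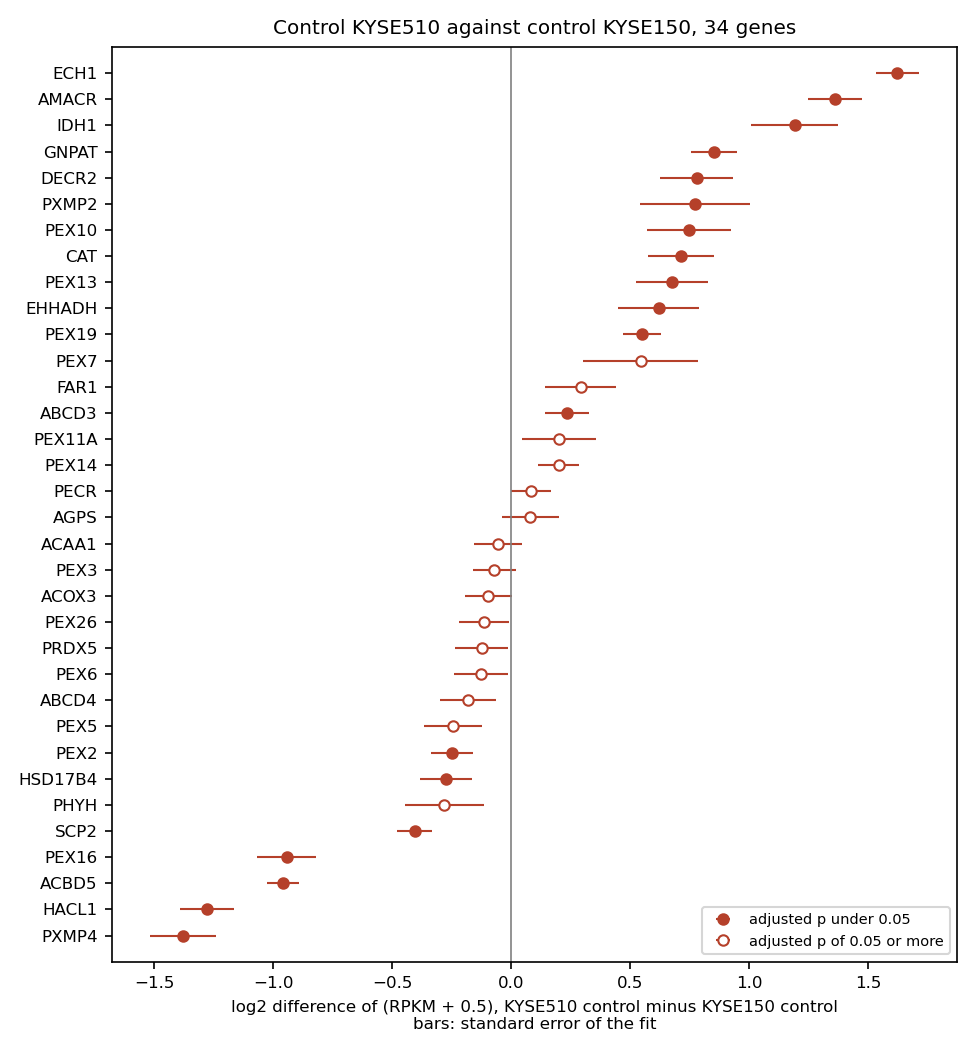
Log2 difference of KYSE510 control minus KYSE150 control (horizontal axis, bars are standard errors of the fit) for the 34 members, in order of the difference; filled points have a limma adjusted p under 0.05. ECH1 is highest at 1.62, PXMP4 lowest at -1.38, and PEX3 lies close to 0 at -0.07.

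A list of 53 other peroxisome genes held 51 in the table and 40 tested. It was drawn up with earlier results of these data known, so it is no independent check. In KYSE510 limma called 0 of 40, where 0.0393% of all genes passed. At an unadjusted p under 0.05 there were 3 of 40, near the 6.35% of all genes. They had negative changes: SLC27A2 (-0.30), MFF (-0.24), a receptor of the division machinery, and ACSL1 (-0.29), an acyl-CoA synthetase. In KYSE150 it called 0 of 40, and 6 had an unadjusted p under 0.05, where 18.1% of all genes did. With the replicate block 2 of 40 passed in KYSE150, where 6.70% of all genes did, both higher: FIS1, an adaptor for organelle division, by 0.26 (limma adjusted p 0.0367), and PMVK, a mevalonate pathway kinase, by 0.31 (limma adjusted p 0.0452). FIS1 measured 34.4, 32.8 and 36.8 RPKM in KYSE150 controls against 42.8, 40.2 and 41.8 RPKM, and in KYSE510 21.9, 21.8 and 22.132 against 22.5, 22.135 and 22.7 RPKM. PMVK measured 12.05, 12.3 and 14.2 RPKM against 15.2, 14.7 and 18.5 RPKM in KYSE150, and 17.9, 19.5 and 21.3 against 22.8, 23.3 and 22.3 RPKM in KYSE510. Both had non-overlapping groups in KYSE150, and PMVK in KYSE510 as well. Centring on the median gene, with no block, gave KYSE150 changes of 0.13 for FIS1 and 0.18 for PMVK (limma adjusted p 0.413 and 0.274). Between control lines 29 of 40 differed (72.5%, beside 62.0% of all genes), 13 higher and 16 lower in KYSE510. SLC27A2, a very long chain acyl-CoA synthetase, measured 0.0178, 0 and 0 RPKM in KYSE150 and 6.44, 5.54 and 6.84 RPKM in KYSE510. CRAT, carnitine acetyltransferase, measured 0.0919, 0.0897 and 0.116 RPKM against 3.72, 6.09 and 6.66 RPKM. GSTK1, a glutathione transferase, was lower in KYSE510 by -1.101 and PAOX, a polyamine oxidase, by -1.08.

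The genes whose pattern was most like PEX3 lay outside the set. Likeness was the Pearson correlation of log2(RPKM + 0.5) with PEX3 over the 12 libraries after the mean of each line was subtracted, and it draws on the KYSE150 contrast that chose PEX3. The closest genes were TNIP2 (r = 0.961), TMA16 (0.956), VDAC2 (0.955), EPS15 (0.952) and TMED10 (0.944). All 5 hold the 7-base word in the 3′ UTR, as do 8.18% of tested genes. Both the word and these genes were picked from these libraries, so this count supports nothing. TMED10 measured 29.2, 33.0 and 32.8 RPKM in KYSE510 controls and 15.1, 15.8 and 16.5 RPKM after silencing, and TNIP2 14.1, 17.3 and 15.3 against 9.67, 11.1 and 9.68 RPKM. Their KYSE510 log2 fold changes were -0.98 and -0.59, beside -0.53 for PEX3. Among members the closest was IDH1 (r = 0.602, rank 600 of all tested genes), and the most opposed were ACBD5 (-0.851), ACOX3 (-0.725) and PRDX5 (-0.675). These values share libraries and depth and are descriptions.

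One promoter word was also searched. In the window from 250 bases before to 50 after each start (RefSeq, GRCh38.p14), the word CACGTG, the same on both strands and known as the core E-box, occurred in 3 of 28 members with an entry, PEX10, PECR and GNPAT. It occurred in 8.77% of 27305 genes with an entry and in 12.8% of the 9560 of them that were tested. The PEX3 window did not hold it.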

How the data were processed

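The authors deposited a table of RPKM (read counts divided by exon length and library depth) for 12 libraries of total RNA. HISAT2 and DESeq are named with GRCh38 in the submitters' processing notes, with no role or version. The annotation release, the use of strand and any filter are not given in the sources used here. The deposited RPKM were whole multiples of 1 read for 100% of values (tolerance 0.02), so reads were recovered, and voom on them called 128 genes in KYSE150 and 5 in KYSE510. The members and lists were chosen with earlier results of these data known. Values were tested as log2(RPKM + 0.5), a scale that understates changes of low genes, in the 17823 genes that reached an RPKM of 0.5 in 3 or more libraries. limma 3.58.1 in R 4.3.3 fitted 4 group means to all libraries with a mean-variance trend, and p-values were adjusted over all genes tested by the Benjamini-Hochberg method (threshold 0.05). Scripts were tested on simulated data.

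Same-numbered control and silenced libraries deviated together (r from 0.147 to 0.415 in all 6 pairs, and from -0.385 to 0.184 in others), so titles were taken to pair them. The main fit left this pairing out, so its errors and calls treat the libraries as unpaired. The replicate block, which uses the pairing, was an alternative. Others were pseudocounts of 0.1 and 1, filters, scalings, voom, the 2 groups alone and each library left out. Genes named in full were PEX3, PEX16 and PEX19, members past the threshold, the 3 largest KYSE510 changes in each direction, the 3 largest differences between control lines in each direction with a mean RPKM of at least 1 in a line, and the highest level. Others named for their pattern were chosen after their values were seen. HAO1, DAO and ALB were not analysed here. GENCODE 29 gave 3′ UTRs. The sites of the 7-base word in PEX26 are not reported here.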

Additional observations from a re-analysis of the deposited data

How the results depend on the processing

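Of 555 values under alternatives, 533 stayed on their side of the threshold with their direction, or moved by less than the spread. In many of them the fold change could not move, as when a library of the other line was left out. KYSE510 changes of single genes smaller than their SE were not counted. No called value changed sign, while medians near 0 did. The fit of the 2 groups alone gave PEX3 -0.96 in KYSE150 (limma adjusted p 0.113), the contrast that chose it, and 0 members passed there. In KYSE510, voom with the replicate block gave PEX3 -0.57 (limma adjusted p 0.00774). It called 2 members and 1 other peroxisome gene, XDH (0.58), where 2.23% of all genes passed. The replicate block called 2 members and 2 other peroxisome genes in KYSE150, where 6.7% of all genes passed. In voom with the block these were 5 members (PEX3 lower, and ACOX3, FAR1, PRDX5 and PXMP2 higher) and 6 other genes, where 19% of all genes passed. In the log2 RPKM fit the block changed no call of a member in KYSE510, but added to voom it turned 0 into 2. It gives no value for the control lines, which lie between blocks. Over the whole table the block raised the 89 genes called in KYSE150 to 1194 and the 7 in KYSE510 to 20, and voom with the block called 3381 and 397. Without filter 44 genes passed in KYSE510. Leaving out each library in turn gave 1 to 3 members and 0 to 1 other genes in KYSE150. The highest values came without KYSE150 control replicate 3, where PRDX5 (0.46) and PXMP2 (0.92) passed with PEX3, FIS1 passed among the others, and 1287 genes passed in all, against 15 to 108 without any other single library. PEX3 then lay between -1.05 and -0.89 in KYSE150 and between -0.58 and -0.50 in KYSE510, and members differing between control lines from 15 to 20. The members' KYSE150 median turned from 0.074 to -0.056 with median centring and -0.039 with quantile normalization, and their KYSE510 median lay between -0.11 and 0.0094 with each library left out. The cause of these moves was not tested. Depth limits the lowest members: PXMP4 had 20 to 306 reads per library and ACOX3 40 to 98.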

Other observations

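Regulators of peroxisome number and of their turnover belonged to no comparison above. PPARG, a nuclear receptor of lipid metabolism, was listed at 0 in all 6 KYSE150 libraries. In KYSE510 it measured 2.58, 3.16 and 3.28 RPKM in controls and 1.63, 1.40 and 2.18 RPKM after silencing. The groups did not overlap, as for 12.1% of all genes. On the log2 scale silenced cells differed by -0.66 (SE 0.13), and limma's adjusted p was 0.165, or 0.0929 when replicates were blocked. RXRA, the partner of these receptors, measured 7.50, 8.81 and 8.72 RPKM in KYSE510 controls against 7.32, 7.28 and 7.20 RPKM (-0.18; limma adjusted p 0.912). KYSE150 gave RXRA a change in the other direction, 0.29 (limma adjusted p 0.252). PPARA had 0.421, 0.733 and 0.564 RPKM against 0.413, 0.648 and 0.514 RPKM, with overlapping groups, and a KYSE150 change of 0.25 (limma adjusted p 0.362). Of the receptors that mark peroxisomes for autophagy, SQSTM1 measured 86.2, 84.7 and 84.3 RPKM in KYSE510 controls against 76.3, 69.3 and 71.9 RPKM (-0.23; limma adjusted p 0.870), and its KYSE150 change was 0.21 (limma adjusted p 0.419). NBR1 measured 4.77, 5.998 and 5.92 RPKM against 5.10, 6.58 and 6.02 RPKM. In KYSE150, NBR1 was apart in the other direction from PEX3, with 5.23, 6.01 and 5.55 RPKM in controls against 6.33, 6.72 and 6.57 RPKM. This change was 0.21 (limma adjusted p 0.329), and 19.2% of all genes were apart in KYSE150. The direction of small KYSE150 changes depended on scaling among the members. Values of these regulators under other scalings are not given here.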
